A study of Mus musculus with 196 samples.

Results

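Expression of 7 transcription factors of the hair matrix, Foxn1, Dlx3, Msx1, Msx2, Lef1, Foxq1 and Ovol1, and of the structural gene Prr9, was followed through mouse non-anagen dorsal skin, dorsal skin in anagen, when follicles grow hair, and tail skin. These 8 genes, of 18820 measured, were chosen by name, and each was read from the probe set with the highest mean among those that name that gene alone. All 8 had a value on all 196 arrays, and no filter on low values was applied.

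The arrays came from 100 mice of a backcross: FVB/N females were crossed to Mus spretus males, and the hybrid daughters were mated to FVB/N males. Every mouse therefore had an FVB/N allele at each autosomal locus and either a second FVB/N allele or a Mus spretus allele; which mice carried which allele was not analysed here. All were untreated and 8 weeks old, and shaved dorsal skin and tail skin were frozen. There were 85 arrays of non-anagen dorsal skin (41 female, 44 male), 14 of anagen dorsal skin (8 female, 6 male) and 97 of tail skin (48 female, 49 male), 1 array per mouse and tissue, and 96 mice gave both tissues. The hair cycle label is the submitters' and describes the dorsal skin only; tails had no such label. Whole skin was used, so fewer cells of a type and less RNA per cell cannot be told apart.

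The hair matrix is the pool of dividing epithelial cells at the base of a growing follicle, around the dermal papilla, and its daughters differentiate into the hair shaft and the inner root sheath that moulds it. Wnt signals received in the matrix and precortex act through Lef1, an HMG-box protein that binds beta-catenin. BMP signals and the homeobox genes Msx2 and Dlx3 act on differentiation toward the shaft, and Foxn1, the forkhead factor lost in nude mice, is needed for shaft keratin expression. Foxq1 is the forkhead factor mutated in satin mice, whose hair shafts have a defective medulla, and Ovol1 is a zinc-finger factor of differentiating epidermis and hair. Msx1 is a close relative of Msx2. Prr9 encodes a small proline-rich protein and lies in the epidermal differentiation complex.

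The 250 bases before the RefSeq start of Prr9, Msx2 and Lef1 are given because Prr9 had the steepest slope on the follicle measure described further on in anagen dorsal skin, and Lef1 and Msx2 the steepest in tail skin. They are RefSeq sequences of build GRCm38.p6, read 5′ to 3′ on the strand of the gene: Prr9 from chr3:92123948-92124197 on the minus strand, Msx2 from chr13:53472781-53473030 on the minus strand and Lef1 from chr3:131110047-131110296 on the plus strand. Capitals mark TAATT or AATTA, the core that homeodomain proteins of the Msx and Dlx kind bind, and CTTTG or CAAAG, the core that Lef1 binds.
Prr9: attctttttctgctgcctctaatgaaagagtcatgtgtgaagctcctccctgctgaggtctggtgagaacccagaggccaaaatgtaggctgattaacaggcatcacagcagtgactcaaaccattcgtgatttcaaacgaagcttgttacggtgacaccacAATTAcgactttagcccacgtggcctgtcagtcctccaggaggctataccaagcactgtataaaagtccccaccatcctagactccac
Msx2: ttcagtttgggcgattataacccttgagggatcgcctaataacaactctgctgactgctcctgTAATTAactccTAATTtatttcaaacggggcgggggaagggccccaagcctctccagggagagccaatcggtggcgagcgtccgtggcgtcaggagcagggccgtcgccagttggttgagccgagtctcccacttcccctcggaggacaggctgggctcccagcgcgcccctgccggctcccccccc
Lef1: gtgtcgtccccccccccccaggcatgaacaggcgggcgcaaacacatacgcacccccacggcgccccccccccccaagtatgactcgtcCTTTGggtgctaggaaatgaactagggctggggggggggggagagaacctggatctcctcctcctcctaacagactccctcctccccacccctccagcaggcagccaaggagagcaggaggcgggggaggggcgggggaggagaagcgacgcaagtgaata
On both strands together, the Msx2 window had 3 matches to TAATT, at 187, 186 and 176 bases before the start, the first 2 of which overlap. The Prr9 window had 1, at 88 bases, and the Lef1 window had none but held 1 match to CTTTG, at 161 bases. Of 27025 promoter windows of this length, 25.4% held TAATT and 48.8% held CTTTG, so such matches are common and are given as a description. The windows of Foxn1 and Msx1 were also searched, with 2 overlapping matches to TAATT in Foxn1 and none to either motif in Msx1. The Foxn1 window (chr11:78386609-78386858, minus strand) overlapped the annotated gene, which reaches to 78386783, and both matches lay inside that gene.

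As a measure of how much growing follicle an array held, the mean of 9 inner root sheath genes (Krt25, Krt26, Krt27, Krt28, Krt71, Krt72, Krt73, Krt74 and Tchh) was taken, here called the sheath level. None of the 8 genes is in it. It averaged 4.97 ± 0.23 (SD, n = 85) in non-anagen dorsal skin, 8.55 ± 2.12 (SD, n = 14) in anagen dorsal skin and 8.56 ± 0.92 (SD, n = 97) in tail skin, on the log2 scale. Of the 14 anagen arrays, 12 lay above all non-anagen arrays and 2 (mice 1057 and 1014, at 5.75 and 5.83) lay within the non-anagen range, whose highest array was at 5.87. The anagen arrays thus spanned from 5.75 to 11.55, and the tails from 5.69 to 10.10. The anagen array of mouse 1039 was the least like its group's median over all genes (r = 0.956, across genes of 1 array) and had the lowest Foxn1 and Dlx3 of the 14. All anagen arrays were in batch 1, as were 75 of the non-anagen arrays, and tails were in batches 3 and 4 only, so tissue and batch cannot be told apart.

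Prr9 was the gene of the 8 with the widest range. It lay between 4.23 and 8.12 (median 6.17) in non-anagen dorsal skin, between 6.33 and 12.15 (median 10.09) in anagen dorsal skin and between 9.71 and 11.54 (median 10.90) in tail skin. Every tail array was above every non-anagen array, whereas 10 of the 14 anagen arrays were above all non-anagen arrays and 4 overlapped them. Foxn1 lay between 5.37 and 8.05 (median 7.14) in non-anagen dorsal skin, between 5.62 and 9.58 (median 7.58) in anagen dorsal skin and between 8.76 and 10.01 (median 9.53) in tail skin. Its tails, too, were all above the non-anagen range, but 12 of the 14 anagen arrays were below the lowest tail.

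Dlx3 ranged from 5.95 to 8.14 (median 7.28) in non-anagen dorsal skin, from 5.68 to 10.21 (median 7.82) in anagen dorsal skin and from 8.25 to 9.88 (median 9.02) in tail skin. The tails again did not overlap the non-anagen arrays, 8 anagen arrays were below all tails and the highest anagen arrays exceeded every tail. Foxn1, Dlx3 and Prr9 were thus the 3 of the 8 genes whose tail and non-anagen arrays did not overlap, against 1.42% of all genes with tails entirely above. Msx2 ranged from 5.09 to 7.24 (median 6.67), from 6.35 to 9.40 (median 7.02) and from 6.82 to 9.19 (median 7.80) in the same order of groups. For Msx2, 81 of 97 tails and 6 of 14 anagen arrays were above all non-anagen arrays.

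Lef1 ranged from 5.56 to 7.69 (median 6.53) in non-anagen dorsal skin, from 5.80 to 8.62 (median 6.86) in anagen dorsal skin and from 5.27 to 8.27 (median 6.81) in tail skin. The groups overlapped broadly, and 84 of 97 tails lay within or below the non-anagen range. Msx1 ranged from 3.96 to 5.34 (median 4.76), from 4.57 to 5.67 (median 5.07) and from 4.43 to 5.76 (median 5.09). For Msx1, 79 of 97 tails were at or below the highest non-anagen array. Its values were low: in the same order of groups, its mean was above that of 25.2%, 30.9% and 32.5% of all genes. Ovol1 ranged from 7.75 to 9.26 (median 8.65), from 7.96 to 9.59 (median 8.82) and from 8.95 to 10.41 (median 9.75), with only 4 tails within the non-anagen range. Foxq1 ranged from 7.02 to 8.60 (median 7.92), from 7.50 to 8.48 (median 8.19) and from 7.43 to 9.17 (median 8.76), with 34 tails within it and no anagen array above it. A second, dimmer probe set of Foxq1 averaged 5.24 in both dorsal groups and 5.74 in tail.

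**Figure D1:**
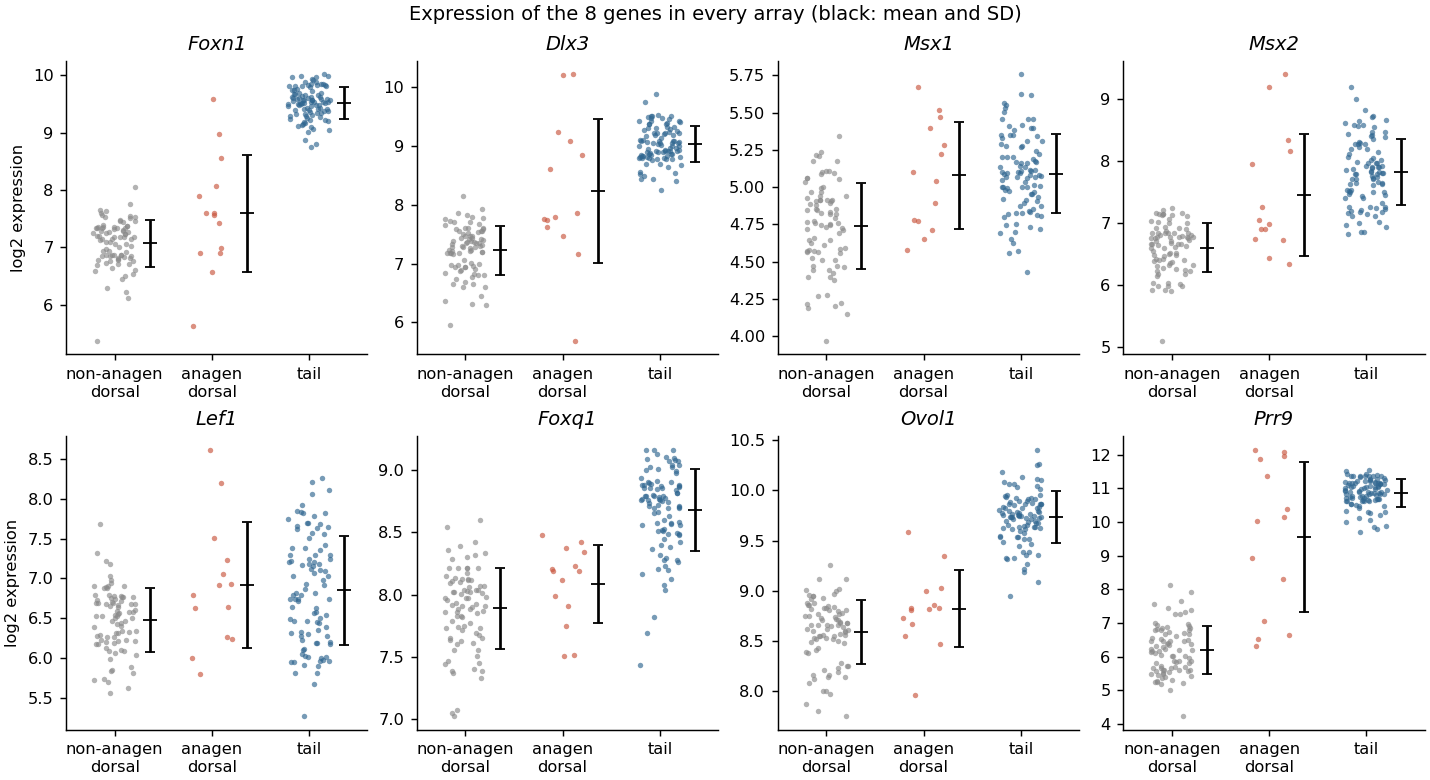
Log2 expression (vertical axis) of the 8 genes on every array of non-anagen dorsal skin (n = 85), anagen dorsal skin (n = 14) and tail skin (n = 97). Points are arrays, and black bars are group means with SD; the tails of Foxn1, Dlx3 and Prr9 all lie above the non-anagen arrays, while the anagen arrays of Prr9 run from 6.33 to 12.15.

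Anagen and non-anagen dorsal skin were compared first, to ask which of the 8 genes changed with the dorsal hair cycle. Prr9 rose most, from 6.20 ± 0.72 (SD, n = 85) to 9.56 ± 2.23 (SD, n = 14), a log2 difference of 3.41 (SE 0.30) or 10.6 times (limma, adjusted p = 5.34e-17). Dlx3 rose from 7.22 ± 0.41 to 8.23 ± 1.22, a difference of 1.01 (SE 0.17, limma adjusted p = 4.43e-06). Prr9 and Dlx3 were the 2 of 8 genes called at an adjusted p under 0.05 with a difference of at least 1, that is at least 2 times; of all genes, 0.68% were called higher and 0.00531% lower by this rule. Dlx3 was only just past this size: its difference fell below 1 when any of the arrays of mice 1013, 1056, 1069, 1080, 1083 or 1101 was left out (lowest 0.85), with the adjusted p staying at or under 0.000131.

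At any size, 6 of the 8 genes rose in anagen and none fell, against 4.11% of all genes that rose and 3.59% that fell. Msx2 rose by 0.86 (SE 0.15, limma adjusted p = 7.43e-06), Foxn1 by 0.50 (SE 0.15, adjusted p = 0.0215), Lef1 by 0.44 (SE 0.14, adjusted p = 0.0290) and Msx1 by 0.34 (SE 0.09, adjusted p = 0.00455). The median difference of the 8 was 0.47, beside -0.02 over all genes. Ovol1, at 0.23 (95% interval 0.05 to 0.42, adjusted p = 0.124), and Foxq1, at 0.20 (0.01 to 0.39, adjusted p = 0.213), did not pass. Foxn1 no longer passed without the array of mouse 1013, 1069, 1080 or 1083 (differences 0.33 to 0.47, adjusted p 0.0515 to 0.217), nor Lef1 without that of mouse 1024, 1080, 1083 or 1101 (0.30 to 0.41, adjusted p 0.0540 to 0.231). Ovol1 passed without the array of mouse 1039 (0.30, adjusted p = 0.0326).

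Other lists moved beside them. Of the 10 hair shaft keratins measured, 8 were called higher (median difference 1.89), led by Krt33a at 4.04 and Krt86 at 3.46. Of 11 melanocyte pigment genes, 1 was called at 2 times (Tyrp1, 1.04) and 7 rose at any size, and 4 of 11 genes of dividing cells rose (Plk1 0.36, Aurkb 0.39). Of 8 interfollicular epidermal genes, 4 fell (Lor by 0.30, Krt1 by 0.32), as did 3 of 7 stem cell genes (Fgf18 by 0.94, Nfatc1 by 0.57). Of 10 dermal papilla genes 2 rose, with Corin at 0.49, but only 4 of the 10 differences were positive and their median was -0.09. None of 4 T cell genes, 6 white adipocyte genes or 8 skeletal muscle genes passed at any size. The part of these cells in the differences of the 8 genes was not tested.

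Tail skin was then compared with non-anagen dorsal skin. All 8 genes rose at any size, against 43.8% of all genes, and 5 were called higher at 2 times or more, against 3.94% of all genes higher and 2.02% lower. At any size, 43.5% of all genes fell. Prr9 rose by 4.67 (SE 0.08, or 25.4 times; limma adjusted p = 6.19e-114) to 10.87 ± 0.41 (SD, n = 97). Foxn1 rose by 2.44 (SE 0.05), Dlx3 by 1.80 (SE 0.05), Msx2 by 1.22 (SE 0.07) and Ovol1 by 1.15 (SE 0.04), with limma adjusted p of at most 9.89e-41. Foxq1 rose by 0.79 (SE 0.05), Lef1 by 0.37 (SE 0.08, adjusted p = 1.56e-05) and Msx1 by 0.35 (SE 0.04), all under 2 times.

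Markers of many cell types differed between the same 2 groups. At 2 times or more, 10 of 10 shaft keratins (median difference 4.42), 8 of 9 sheath genes (3.45), 9 of 11 pigment genes (1.95), 4 of 11 genes of dividing cells (0.91) and 3 of 10 dermal papilla genes (-0.17 over the list) were higher in tail. Of 8 skeletal muscle genes 7 were lower (median -2.08), as were 3 of 4 T cell genes (-1.88) and 4 of 7 stem cell genes (-1.02). Interfollicular epidermis had 1 of 8 higher (Krt2, 7.59) and 1 lower (Krt77, -6.01), and no white adipocyte gene passed at 2 times. The part of these cells in the differences of the 8 genes was not tested.

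The smaller of these differences moved with scaling. When arrays were shifted to a common median, the median over all genes moved to -0.14 and Lef1 stood at 0.23 (adjusted p = 0.00541). Under quantile normalization Lef1 was at 0.16 (adjusted p = 0.0547) and no longer passed, and Ovol1, at 0.94, was under 2 times. The split of genes called higher at 2 times also moved, from 66.1% of those called to 51.4% and 50.6% under the 2 scalings.

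Tail and anagen dorsal skin had almost the same mean sheath level over the 9 genes, but not gene by gene. At any size 3 of the 9 were higher in tail, among them Krt25 at 0.93 and Krt73 at 0.91, and 1 was lower. The differences of only 4 of the 9 were positive, and the median difference of the 9 was -0.17. The median of the 9 averaged 9.17 in tail against 8.57 in anagen dorsal skin, and Krt71 11.04 against 10.30. Foxn1 was higher in tail by 1.94 (SE 0.12, limma adjusted p = 2.9e-29) and Prr9 by 1.32 (SE 0.24, adjusted p = 7.78e-07); these were the 2 of 8 called at 2 times, against 3.32% of all genes called higher and 1.68% lower. At any size 6 of 8 were higher in tail, against 39.8% of all genes (36% were lower): beside Foxn1 and Prr9, Ovol1 (0.92, SE 0.08), Dlx3 (0.82, SE 0.14), Foxq1 (0.59, SE 0.09) and Msx2 (0.39, SE 0.17, adjusted p = 0.0266). Msx1 and Lef1 did not pass, with differences of 0.02 (95% interval -0.13 to 0.17) and -0.04 (-0.42 to 0.34). Other markers moved too: at 2 times or more, 9 of 10 shaft keratins (median difference 1.75) and 8 of 11 pigment genes (1.67) were higher in tail, and 7 of 8 skeletal muscle genes (-2.07), 3 of 4 T cell genes (-1.62) and 3 of 7 stem cell genes (-0.91) lower. Their part in the differences was not tested.

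Among the 14 mice with anagen dorsal skin, the tail exceeded the same animal's back in 14 for Foxn1 and Ovol1, 13 for Foxq1, 10 for Prr9, 9 for Dlx3 and Msx2, 7 for Msx1 and 5 for Lef1. Taken as differences within each mouse (mouse as a block), Foxn1 (1.93, adjusted p = 4.53e-06), Ovol1 (0.98, adjusted p = 1.04e-05) and Foxq1 (0.59, adjusted p = 0.00127) passed. Prr9 (1.21, SE 0.52, adjusted p = 0.0580), Dlx3 (0.70, adjusted p = 0.0582) and Msx2 (0.15, adjusted p = 0.657) did not pass in this paired fit. Msx2 also failed to pass without the anagen array of mouse 1014, 1020, 1024, 1039, 1057, 1082 or 1111 (0.32 to 0.35, adjusted p 0.0553 to 0.0812) and under either other scaling (0.25 and 0.18).

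Mouse 1080 shows the contrast in a single animal, chosen after its values were seen. Its back had the highest sheath level of all dorsal arrays (11.55) and its tail the lowest of all tails (5.69). Its Prr9 was 12.15 on the back and 10.28 in the tail, and its Lef1 8.20 and 5.97. Its Foxn1 was 8.97 and 9.18. In mouse 1057, whose back had the lowest sheath level of the anagen arrays, Prr9 was 6.54 on the back and 11.04 in the tail, and Foxn1 7.61 and 9.88. In that animal both genes were lower on the back.

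**Figure D2:**
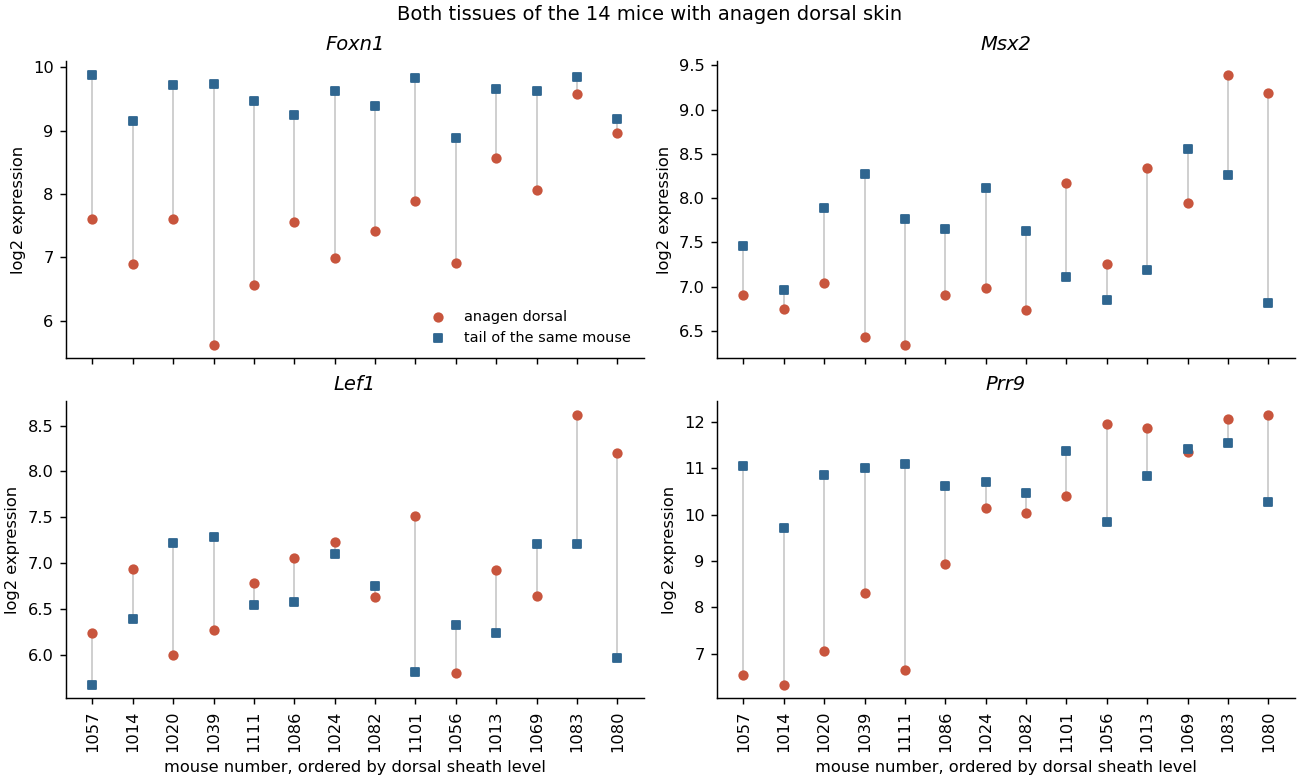
Log2 expression (vertical axis) of Foxn1, Msx2, Lef1 and Prr9 in the 14 mice with anagen dorsal skin, ordered from left to right by dorsal sheath level. Circles are dorsal skin and squares the tail of the same mouse; Foxn1 is higher in the tail in all 14 mice, and Prr9 is higher on the back in 4, including mice 1083 and 1080 at the right.

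**Figure D3:**
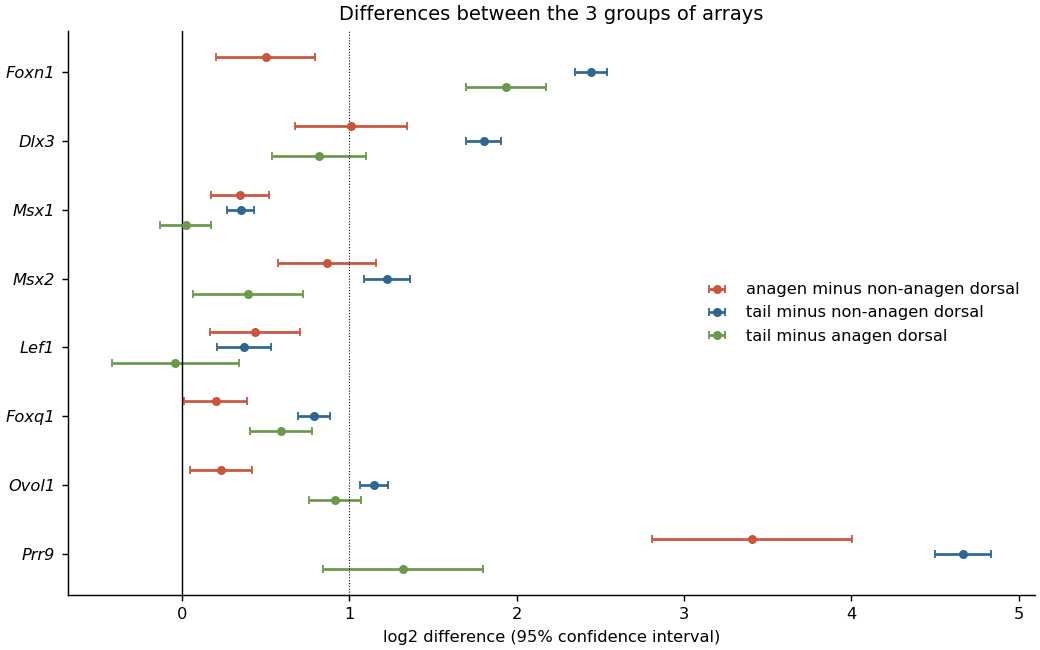
Log2 differences between groups (horizontal axis, with 95% confidence intervals from limma) for the 8 genes: anagen minus non-anagen dorsal skin, tail minus non-anagen dorsal skin and tail minus anagen dorsal skin. The dotted line marks 1, or 2 times; Prr9 lies at 3.41, 4.67 and 1.32, and Lef1 at 0.44, 0.37 and -0.04.

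Whether the tail followed the back's hair cycle was asked by giving each tail the state of its mouse's dorsal skin. No gene passed between tails of mice with anagen and non-anagen backs, in either direction (limma, 0 of 18820 genes, or 0%; 796 had an unadjusted p under 0.05, and 0 of the 8). Of the 8 genes, Lef1 (-0.35, 95% interval -0.72 to 0.02) and Msx2 (-0.29, -0.58 to 0.00) had the largest differences, both toward lower values in tails of mice with anagen backs. The 9 sheath genes (median -0.59) and 10 shaft keratins (median -0.62) all leaned the same way, and their part in these differences was not tested. The dorsal difference was larger than the tail difference in a test of their difference for Prr9 (3.53, SE 0.33), Msx2 (1.16, SE 0.21), Dlx3 (1.14, SE 0.19), Lef1 (0.79, SE 0.23, limma adjusted p = 0.0266) and Msx1 (0.43, SE 0.11, adjusted p = 0.00917). These are 5 of 8 genes, against 2.57% of all genes in this direction and 1.25% in the other. Foxn1 did not pass (0.51, adjusted p = 0.0776), but did without the anagen array of mouse 1039 (0.65, adjusted p = 0.00487). Lef1 did not pass without the sex covariate (0.76, adjusted p = 0.0537). The values of Ovol1 and Foxq1 were 0.15 and 0.20.

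Within tail skin, the 8 genes divided by how they followed the sheath level. Lef1 rose by 0.64 (SE 0.03, limma adjusted p = 4.44e-31) and Msx2 by 0.51 (SE 0.03, adjusted p = 7.79e-32) for each log2 unit of sheath level. Dlx3 followed at 0.25 (SE 0.02), Prr9 at 0.19 (SE 0.04), Msx1 at 0.16 (SE 0.02) and Foxn1 at 0.11 (SE 0.03, adjusted p = 0.00172). These 6 of 8 genes with positive slopes stand against 13% of all genes, which is the background of a test with 97 arrays. Foxq1 had a negative slope of -0.10 (SE 0.04, adjusted p = 0.0438), as did 10.8% of all genes, and did not pass within batch 4 alone (-0.09, adjusted p = 0.0529). Ovol1 had a slope of 0.02 (95% interval -0.04 to 0.08, adjusted p = 0.693).

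Across the 97 tails, after adjustment for sex and batch, the correlation with the sheath level was r = 0.889 for Msx2 (rho = 0.900) and r = 0.883 for Lef1 (rho = 0.895), each with a permutation p of 1e-05, the smallest that 100000 permutations can give. Without the 2 tails farthest from the median sheath level these were 0.886 and 0.887. Dlx3 had r = 0.768, Msx1 0.550, Prr9 0.421, Foxn1 0.380, Ovol1 0.0605 and Foxq1 -0.260. The sheath level thus corresponded to 79.0% of the adjusted variance of Msx2 and to 14.5% of that of Foxn1. Other levels moved with the sheath level in tails: shaft keratins (r = 0.969), dermal papilla genes (0.533) and dividing cells (0.392), with pigment genes at 0.0215. The stem cell level had r = 0.449, but its genes were split: 3 of 7 had slopes past the test upward, with Lgr5 (0.49) and Lhx2 (0.30) the largest, 2 of 7 downward, and the median slope was -0.05. The part of these cells in the slopes was not tested.

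Among the 14 anagen dorsal arrays the order was different. Prr9 had the steepest slope, 1.02 (SE 0.065, limma adjusted p = 1.04e-08), with r = 0.971 and rho = 0.960 (permutation p = 1e-05 for each), and r = 0.965 without the 2 arrays farthest from the median sheath level. Dlx3 rose by 0.48 (SE 0.07, adjusted p = 0.000486), Msx2 by 0.38 (SE 0.07, adjusted p = 0.00222) and Foxn1 by 0.32 (SE 0.09, adjusted p = 0.0328) per log2 unit. These were 4 of 8, against 4.22% of all genes; 3.66% had negative slopes, none of the 8 among them. Foxn1 lost its call without the array of mouse 1013, 1014, 1080, 1083 or 1111 (slopes 0.23 to 0.33, adjusted p 0.0519 to 0.146). It also missed the test with Krt71 alone as the sheath level (0.28, adjusted p = 0.102), with the median of the sheath genes (0.28, adjusted p = 0.0541) and without the 2 arrays farthest from the median sheath level (0.36, adjusted p = 0.0769).

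Lef1 did not pass in anagen skin, at 0.21 (95% interval 0.05 to 0.37, adjusted p = 0.110), nor did Msx1 at 0.11 (0.03 to 0.19, adjusted p = 0.0773), Ovol1 at 0.10 (0.01 to 0.18) and Foxq1 at 0.07 (-0.01 to 0.15). Without the array of mouse 1056, which had a sheath level of 10.42 but the lowest Lef1 of the group (5.80), Lef1 (0.26, adjusted p = 0.0201) and Msx1 (0.14, adjusted p = 0.0133) did pass, as they did with the shaft keratins as the level (0.30 and 0.15, adjusted p = 0.0293 and 0.0318). Msx1 also passed with arrays shifted to a common median (0.13, adjusted p = 0.0435). In these 14 arrays the sheath level also went with shaft keratins (r = 0.967), pigment genes (0.715) and white adipocyte genes (0.689), against interfollicular epidermis (-0.881) and T cell genes (-0.616), and hardly with dividing cells (0.0633). Their part in the slopes was not tested.

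The slopes of tail and anagen dorsal skin were compared directly. Lef1 was steeper in tail by 0.43 (SE 0.06, limma adjusted p = 1.2e-07), as were 7.49% of all genes. Prr9 was less steep in tail by 0.83 on the same scale (SE 0.07, adjusted p = 4.61e-19), with Dlx3 (-0.22, SE 0.05), Foxn1 (-0.21, SE 0.06, adjusted p = 0.0117) and Foxq1 (-0.17, SE 0.055, adjusted p = 0.0330) in the same direction, 4 of 8 against 4.18% of all genes. Foxq1 no longer passed without mouse 1039 (-0.14, adjusted p = 0.0582), and Foxq1 and Foxn1 did not with Krt71 alone as the sheath level (-0.14 and -0.17, adjusted p = 0.0740 and 0.0578). Msx2 (0.13, 95% interval 0.03 to 0.23, adjusted p = 0.0872), Msx1 (0.04) and Ovol1 (-0.08) did not pass. In non-anagen dorsal skin, where the sheath level varied little, only Prr9 of the 8 had a slope past the test (1.46, SE 0.30, adjusted p = 0.00615, against 0.877% of all genes with positive and 0.159% with negative slopes), and it did not pass within batch 1 (1.10, adjusted p = 0.304), with Krt71 alone (0.36) or with the median of the sheath genes (0.76, adjusted p = 0.286).

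**Figure D4:**
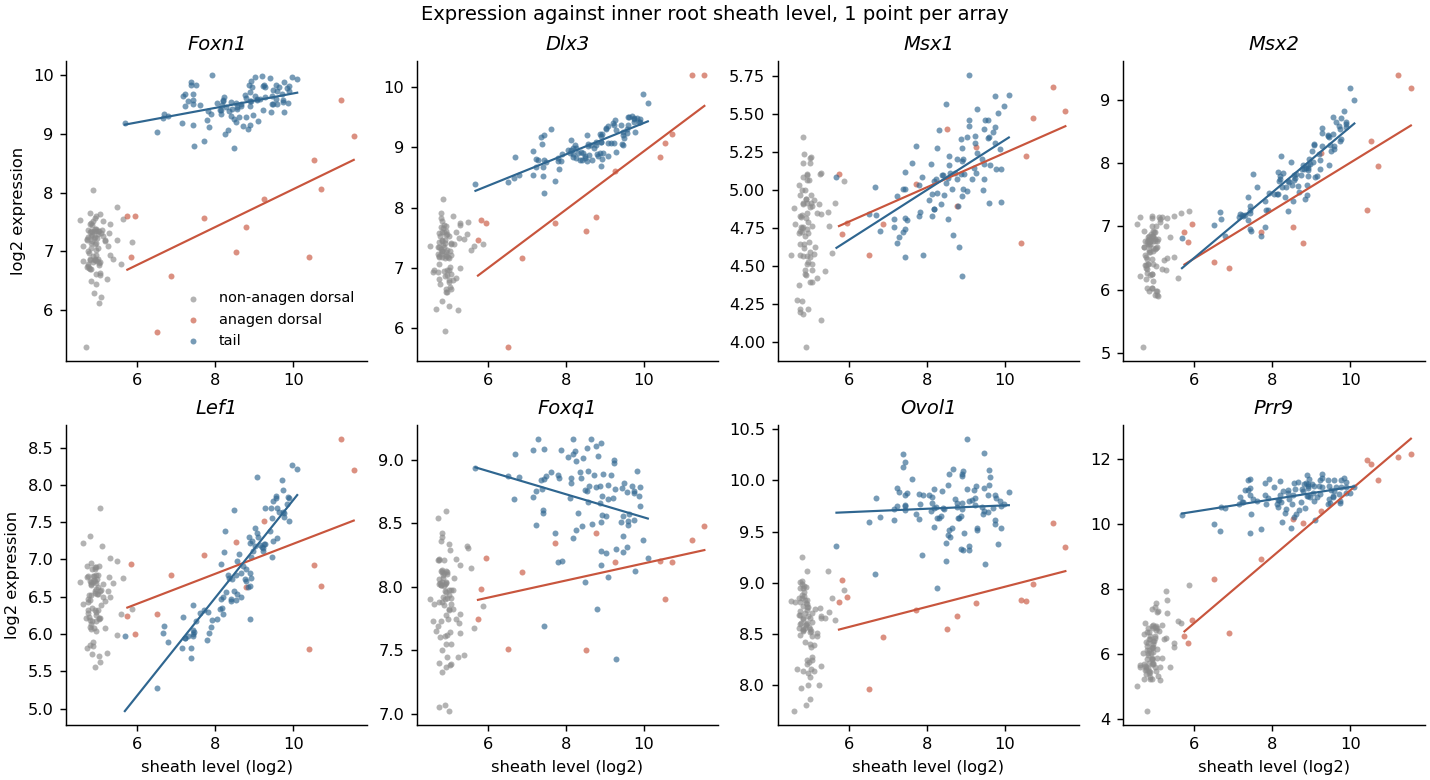
Log2 expression of each gene (vertical axis) against the sheath level (horizontal axis, mean log2 value of 9 inner root sheath genes), 1 point per array, with unadjusted least-squares lines for tail and anagen dorsal skin. Msx2 climbs along both lines and Lef1 along that of the tails (the anagen slope of Lef1, 0.21, did not pass the test). The tails of Foxn1 and Prr9 climb less, with slopes of 0.11 and 0.19 that passed the test. Their values lie within 8.76 to 10.01 and 9.71 to 11.54.

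**Figure D5:**
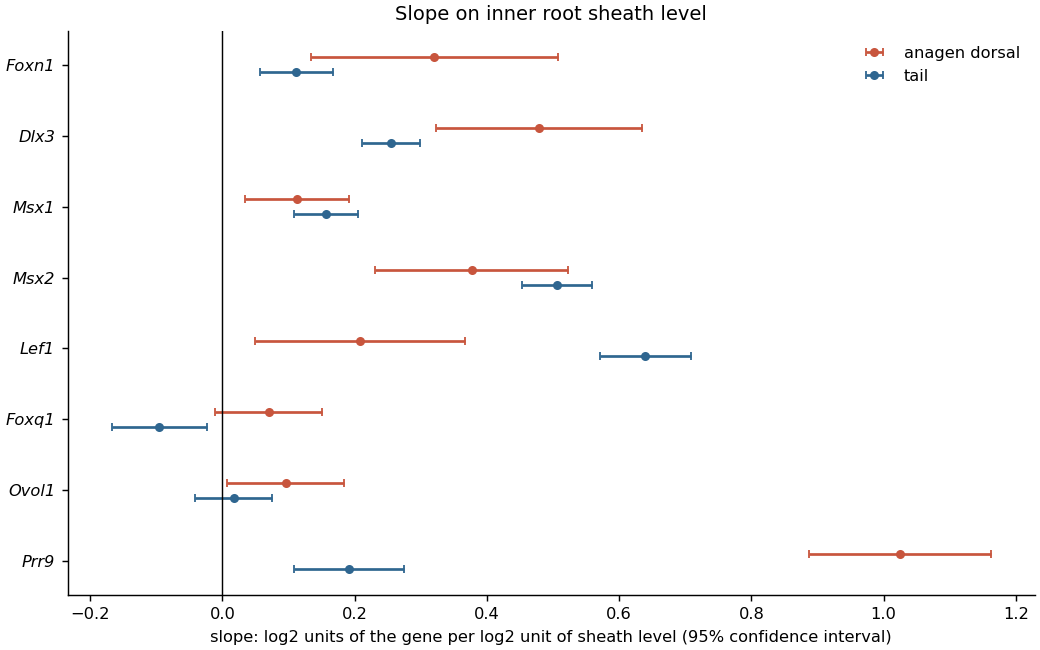
Slopes of the 8 genes on the sheath level (horizontal axis, log2 units of the gene per log2 unit of sheath level, with 95% confidence intervals from limma) in anagen dorsal skin (n = 14) and tail skin (n = 97). Prr9 has slopes of 1.02 and 0.19, Lef1 of 0.21 and 0.64.

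Correlations among the 8 genes were taken within each group. In anagen dorsal skin all 28 pairs had a positive correlation over the 14 arrays, adjusted for sex. Their median was 0.738, with a range from 0.256 (Msx1 with Foxq1) to 0.912 (Dlx3 with Msx2). Over the 97 tails 19 of 28 pairs were positive, with a median of 0.312. The highest tail pairs were Msx2 with Lef1 (0.896) and Dlx3 with Msx2 (0.841), and Foxn1 went most closely with Prr9 (0.718), whereas Lef1 and Prr9 were at 0.186 and Lef1 and Foxq1 at -0.296. Over the 85 non-anagen arrays 20 pairs were positive, with a median of 0.170, and the closest were Foxn1 with Msx2 (0.678), Dlx3 with Ovol1 (0.671) and Foxq1 with Ovol1 (0.614). These correlations are descriptions, because the arrays of a group share their tissue and the sheath level was not removed. The share of positive pairs over all genes was not computed. A few anagen arrays lay at the ends of many genes. Mouse 1039 had the lowest Foxn1, Dlx3, Msx1 and Ovol1 of the 14, and mice 1080 and 1083 the highest values of every gene but Foxq1. The pairs were not recomputed without these arrays.

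The genes most like each of the 8 were taken as the 3 with the highest r among genes above the median level. In tails, Foxn1 was most like Hoxc13 (r = 0.776, n = 97), the homeobox regulator of hair keratins, then Rhog (0.727) and Tle5 (0.718). Dlx3 was most like the zinc-finger factor Sp6 (0.867), then Csdc2 (0.834) and Golga7b (0.783). Msx2 was most like Ly6g6g (0.916), the shaft cuticle keratin Krt82 (0.905) and the sheath keratin Krt73 (0.897), and Lef1 like Pitrm1 (0.930), Cyria (0.921) and again Krt73 (0.909). Krt73 is part of the sheath level, so its likeness to Msx2 and Lef1 partly repeats their correlation with that level. Prr9 was most like Prss53 (0.753), Minpp1 (0.748) and Otub2 (0.735).

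The remaining genes had other neighbours in tails. Foxq1 was most like Col17a1 (0.796), a collagen of basal keratinocyte hemidesmosomes, then Mark2 (0.792) and Sema4b (0.775). Ovol1 was most like Slc37a2 (0.702), then the epidermal factor Grhl3 (0.694) and Nabp1 (0.646). Msx1 was most like Nrp2 (0.726), Arhgef17 (0.725) and Cntfr (0.718).

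In the 14 anagen arrays the neighbours of Prr9 were hair genes: Krtap19-5 (r = 0.993), Krt86 (0.988) and Krtap5-2 (0.988), a shaft keratin between keratin-associated protein genes. Msx2 was most like the shaft keratins Krt40 (0.964) and Krt35 (0.959) and the Wnt receptor gene Fzd5 (0.948), and Lef1 like Cux1 (0.931), Slc39a10 (0.915) and Gars (0.914). The membrane serine protease gene St14 was among the 3 nearest of Foxn1 (0.914), Dlx3 (0.953) and Ovol1 (0.949). The others were Slc38a3 (0.960) and Rnf41 (0.917) for Foxn1, Eaf1 (0.961) and S100a16 (0.955) for Dlx3, and Zswim4 (0.941) and Sp6 (0.934) for Ovol1. Msx1 was most like Fads1 (0.933), Wnt5a (0.898) and E2f3 (0.890), and Foxq1 like Cdc42se1 (0.914), B4galnt3 (0.902) and Csnk1d (0.900). With 14 arrays such values are high for many genes, and no test was made of them.

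Other regulators of the matrix and shaft were set beside the 8, from a list of 37 of which 36 were measured. In anagen against non-anagen dorsal skin, 1 of 36 was called at 2 times (the Ets factor Elf5, 1.06), against 0.68% of all genes called higher. At any size 10 rose and 5 fell, against 4.11% and 3.59% of all genes, and the median difference was 0.08. Hoxc13 rose by 0.92 and Dlx2 by 0.51, while Satb1 fell by 0.60. Nfatc1, which is also on the stem cell list, fell by 0.57. In tail against non-anagen dorsal skin 7 of 36 were called higher and 3 lower (median 0.41), against 3.94% and 2.02% of all genes. Hoxc12 rose by 3.64, Hoxc13 by 2.36, Elf5 by 2.35 and Dlx2 by 1.85, and Runx3 fell by 1.24. The homeobox relatives Msx3 and Dlx6 did not pass in anagen (-0.04 and -0.07) and fell in tail by 0.27 and 0.11.

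Of 34 measured genes of Wnt, BMP, Notch, hedgehog and FGF signals to the matrix, none was called at 2 times in anagen. At any size 7 were higher and 1 lower, among them Fgf5 at 0.87 and Shh at 0.70, against 4.11% and 3.59% of all genes. In tail against non-anagen dorsal skin 2 were called higher, Wnt4 (1.66) and Bmp8a (1.09), against 3.94% of all genes. At any size 15 were higher and 13 lower, with a median of 0.02, which is close to the 43.8% and 43.5% of all genes. Against the sheath level in tails, 13% of all genes had positive and 10.8% negative slopes. Among the 34 signal genes 16 had positive and 4 negative slopes, led by Bmp8a (0.50), Fgf7 (0.30) and Wnt5a (0.29). Among the 36 regulators 16 had positive and 2 negative slopes, led by Lhx2 (0.30), Sp6 (0.27) and Foxi3 (0.25). Bmp8a was thus close to Msx2 (0.51) and below Lef1 (0.64), differences that were not tested. Lhx2 is also on the stem cell list. In anagen dorsal skin 8 of 36 regulators had positive and 4 negative slopes, led by Elf5 (0.60) and Hoxc13 (0.46), and 5 of 34 signal genes positive and 4 negative. The shares over all genes there were 4.22% positive and 3.66% negative.

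No correlation between a mouse's tail and its back was detected for any of the 8 genes, which does not show that there is none. In the 82 mice that had a tail and a non-anagen back, r lay between -0.160 (Dlx3) and 0.0980 (Foxq1), with permutation p of 0.151 or more and adjusted p of 0.474 or more over all genes. Of all genes, 8.62% had a positive and 0.0584% a negative correlation past the test. In the 14 mice with anagen backs r lay between -0.268 (Ovol1) and 0.213 (Foxn1), and 14 mice are too few to settle the question. The sheath levels of both tissues had r = -0.101 over the 82 mice and -0.238 over the 14.

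Females and males were compared within tissues. None of the 8 genes passed in non-anagen dorsal skin, where Foxn1 was highest at 0.20 higher in females (limma adjusted p = 0.111). There, 6.19% of all genes were higher and 6.11% lower in females. An unadjusted p under 0.05 was found for 1 of the 8, beside 4990 of all 18820 genes. In tail skin Lef1 (0.40, 95% interval 0.14 to 0.67, adjusted p = 0.0748) and Msx2 (0.31, 0.10 to 0.52, adjusted p = 0.0823) were the nearest to passing. Over all genes 1.64% were higher and 1.2% lower in females. In tails 5 of the 8 had an unadjusted p under 0.05, beside 3250 of all 18820 genes. Without the 4 tails least like the tail median (mice 1069, 1073, 1075 and 1081), Lef1 (0.44, adjusted p = 0.0465), Dlx3 (0.20, adjusted p = 0.0377) and Foxn1 (0.18, adjusted p = 0.0372) were higher in females. Of these mice, 1069, 1075 and 1081 were female and 1073 male. The tail of 1075 had the lowest Dlx3 of all tails (8.25) and that of 1073 the highest Foxn1 (10.01), so leaving them out by itself widened those differences. The share over all genes in this setting is not given here. Over all tails, 5 of 6 white adipocyte genes passed as higher in females (median difference 0.51), and the differences of all 9 sheath genes (median 0.46) and of 9 of 10 shaft keratins (median 0.41) were positive, though no sheath gene or shaft keratin passed. Their part in the differences was not tested.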

How the data were processed

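Total RNA (1 ug) from dorsal and tail skin was hybridised to Affymetrix arrays, and the authors deposited log2 expression values made with RMA, per the submitters' processing notes and per the labels; its version is not given in the sources used here. Values ran from 0.904 to 13.83. Of 35556 probe sets, 21218 named 1 gene, 1881 named several and 12457 none; only the first were used, and for 1386 genes with several the one with the highest mean was kept, which left 18820 genes. No 2 arrays were identical. Levels of different probe sets are not comparable with each other, and precision depends on how many arrays a group has.

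For differences and slopes, lmFit and eBayes of limma 3.58.1 (R 4.3.3) were run over all genes, with sex and, within a tissue, batch as covariates, and Benjamini-Hochberg adjustment over 18820 genes. The 3 comparisons of groups were called at an adjusted p under 0.05 and a log2 difference of at least 1, with calls at any size beside them; all others at an adjusted p under 0.05. Of these 3, the first 2 share the non-anagen arrays, the last 2 the tails, and the first and last the anagen arrays, so they are not independent. The procedure was tested on simulated data. Correlations and two-sided permutation tests (100000 resamples) used scipy 1.17.1, numpy 2.4.6 and pandas 2.3.3 under Python 3.11.15, and matplotlib 3.10.9 drew the figures.

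The 8 genes and all gene lists were chosen with earlier results of these data known. Other genes named are the 3 most like each of the 8, the 2 members of a list with the largest differences in the first 2 comparisons, and a few list members singled out after their values were seen. Each array is a separate mouse within its tissue, so p-values within a tissue measure the spread between mice. Each fit took a single variance per gene over its groups, although anagen arrays spread more for most of the 8 genes (not Foxq1). The SD of Prr9 was 2.23 in anagen, 0.72 in non-anagen and 0.41 in tail skin, and that of Foxn1 1.01, 0.41 and 0.27. SEs and p-values against anagen skin thus lean on the larger groups and may be too small. The main fits between tissues did not pair the arrays of a mouse. The mouse number pairs the tissues: over all genes, a mouse's tail deviated with its own dorsal skin at a median correlation of 0.145, against 0.0004 with that of other mice, and in 18 of 82 mice the own pair was the closest. Promoter sequences matched 5 of the 8 genes by symbol; Dlx3, Foxq1 and Ovol1 were not matched. Alternatives were the scaling, probe set rule, filter on low values, covariates, batch, mouse block, sheath measure and leaving out arrays; the arrays left out for standing apart, and the sheath level as a covariate, which could hardly move a difference between groups of nearly equal mean level, were chosen after seeing the data.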

Additional observations from a re-analysis of the deposited data

Results flagged for a closer look

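Some of the 8 genes differed between groups under the same contrast by a test of the difference itself. The dorsal difference between anagen and non-anagen skin exceeded the difference between tails of the same 2 sets of mice for Prr9 (3.53), Msx2 (1.16), Dlx3 (1.14), Lef1 (0.79) and Msx1 (0.43). The slope on the sheath level differed between tail and anagen dorsal skin, tail minus dorsal, for Prr9 (-0.83), Dlx3 (-0.22), Foxn1 (-0.21), Foxq1 (-0.17) and Lef1 (0.43).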

How the results depend on the processing

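For the 8 genes, 759 of 787 values under the alternatives stayed on the same side of an adjusted p of 0.05 in the same direction, 20 no longer passed and 8 newly passed; leaving out 1 anagen array at a time, 20 of 336 no longer passed and 3 newly passed. No value under any alternative run reversed a called direction. The calls of Prr9, Dlx3 and Msx2 lost in the paired fit are given with that comparison. The fits with mouse as a block called 1129 (differences within each mouse) and 1121 (random block) genes between tail and non-anagen skin, against 1123, 919 and 941 between tail and anagen skin, against 941, and 843 for the difference between hair cycle effects, against 718; the block changed no other call of the 8 genes. Under a common median and quantile scaling the share of calls that were higher moved to 50.6% and 49.9% between tail and anagen skin (from 66.4%), to 53.9% and 59.2% for the difference between hair cycle effects (from 67.3%), and to 43.5% and 53.4% for the difference between slopes (from 64.2%). Under a common median it also moved to 67.3% for anagen slopes (from 53.6%), 24% for females against males in non-anagen skin (from 50.3%) and 43.3% in tail (from 57.9%), and the median slope of all genes in non-anagen skin moved to 0.14.

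Counts over all genes that moved by more than 1.5 times were these. A filter on low values, which tests 9410 genes, left 33 calls (from 129) in the anagen comparison, 2172 (from 4484) for tail slopes and 2 (from 195) for non-anagen slopes. The non-anagen slopes had 3724 calls under a common median, 19 in batch 1 alone, 5 with Krt71 alone, 53 with the list's median and 319 with the dividing cell level as a covariate. Anagen slopes fell from 1484 to 651 without the 2 arrays farthest from the median sheath level and ranged from 899 to 2089 leaving out 1 array at a time, with the lowest without mouse 1080 and 954 without mouse 1083. The cause was not tested. Batch cannot be separated from tissue, and signal over background was not analysed here.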
